A study of Saccharomyces cerevisiae with 30 samples.

Results

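The chromosome VI origins described here lie between 30 and 240 kb of budding yeast chromosome VI (*Saccharomyces cerevisiae*, build R64 by the submitters' processing notes). The members were the running 2 kb windows with a midpoint in that range, chosen by position alone. After 8 windows with no read in any library were left out, 1043 of the 60303 windows of the genome remained. TrAEL-seq, which maps free DNA 3′ ends at replication forks, was used on 4 strains, which were wild type, the *pol1-1A* mutant, a strain with *mrc1-AQ cdc45-2A*, and that strain with the *pol1-1A* allele added, *mrc1-AQ cdc45-2A pol1-1A*. Cells were arrested in G1 with alpha factor, released into 200 mM hydroxyurea (HU), and sampled in HU (0 min) or at 20 or 40 min after HU was washed out, with 2 replicates of each, giving 24 libraries. A further 6 libraries came from asynchronously growing wild type cells without HU, as 2 preparations that were each split over the 3 time points. The libraries of 1 time point and replicate number were processed together as a pool, so that time points were never in the same pool. The labels do not say whether replicates came from separate cultures, and p-values then measure only the spread between these samples, which may be technical.

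Replication of a yeast chromosome begins at origins (ARS elements), where 2 replisomes are assembled and move apart as sister forks. HU depletes nucleotides and slows forks soon after the early origins have fired, and the checkpoint kinases Mec1 and Rad53 then hold back the late or dormant origins and stabilise the forks. Mrc1 is the checkpoint mediator at the fork, Cdc45 is a subunit of the replicative helicase, and Pol1 is the catalytic subunit of DNA polymerase alpha, which primes the lagging strand. In *mrc1-AQ* the Mec1 phosphorylation sites of Mrc1 are changed to alanine, and in *cdc45-2A* and *pol1-1A* the sites through which Cdc45 and Pol1 bind Rad53 are. On chromosome VI, ARS607 is known as an early and efficient origin and ARS603 as a late one that is used in few cells.

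Mapped reads ranged from 2974768 to 10460920 over the 24 strain libraries and from 317539 to 1333846 over the asynchronous ones. In the 24 libraries the stretch held 63079 to 240274 reads, and the median member held 213 to 1423. The signal is given in RPM, the reads scaled to the mapped reads of the library, and 70.9% to 96.6% of the mapped reads of the strain libraries fell in any window of the genome. A blank stretch from position 138001 to 143800 held almost no reads, and 30 members overlapped a blank 200 bp step. Neighbouring windows overlap by 1800 bp and are not independent, so tests were run on non-overlapping windows (1 in 10).

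An origin was called where the averaged wild type HU profile held a pair of peaks with 4 to 9 kb between them. The pair is the mark of sister forks that left the origin between them. Of 136 pairs in the genome, 3 lay in the stretch. The pair at 118.6 kb, between *CDC4*, which encodes an F-box protein, and *SMC1*, which encodes a cohesin subunit, was the weakest. Its peaks stood at 115.8 and 121.4 kb with heights of 617 and 674 RPM, and its 10 kb signal ranked 91 of 136. The pair at 167.9 kb, at the start of *DCV1* and just right of the tRNA gene *SUP11*, had peaks at 165.2 and 170.6 kb with heights of 1447 and 1230 RPM and ranked 30. The pair at 199.3 kb, between *ROG3* and *PES4*, lies at the position given for ARS607 and had peaks at 196.6 and 202.0 kb with heights of 1325 and 1304 RPM and ranked 35. The *CDC4*-*SMC1* peaks were thus the lowest on both sides. A seventh wild type peak, at 133.4 kb and 1021 RPM, stood alone. Its partner appeared only at a prominence of 0.5 mean window values, as a pair centred at 135.4 kb in *MSH4*, a meiotic MutS homologue, with a right side cut short by the blank stretch. No pair was called at ARS603, near 69 kb, between *MIL1* and *RIM15*, the latter a protein kinase of the entry into quiescence. Another site, at 216.5 kb between *MET10*, which encodes a sulfite reductase subunit, and *SMC2*, which encodes a condensin subunit, also gave no pair in wild type HU. The *MSH4* and *MET10*-*SMC2* sites were chosen after their values had been seen. No table of ARS positions was used here, and apart from ARS603 and ARS607 the sites are named by their genes.

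**Figure D1:**
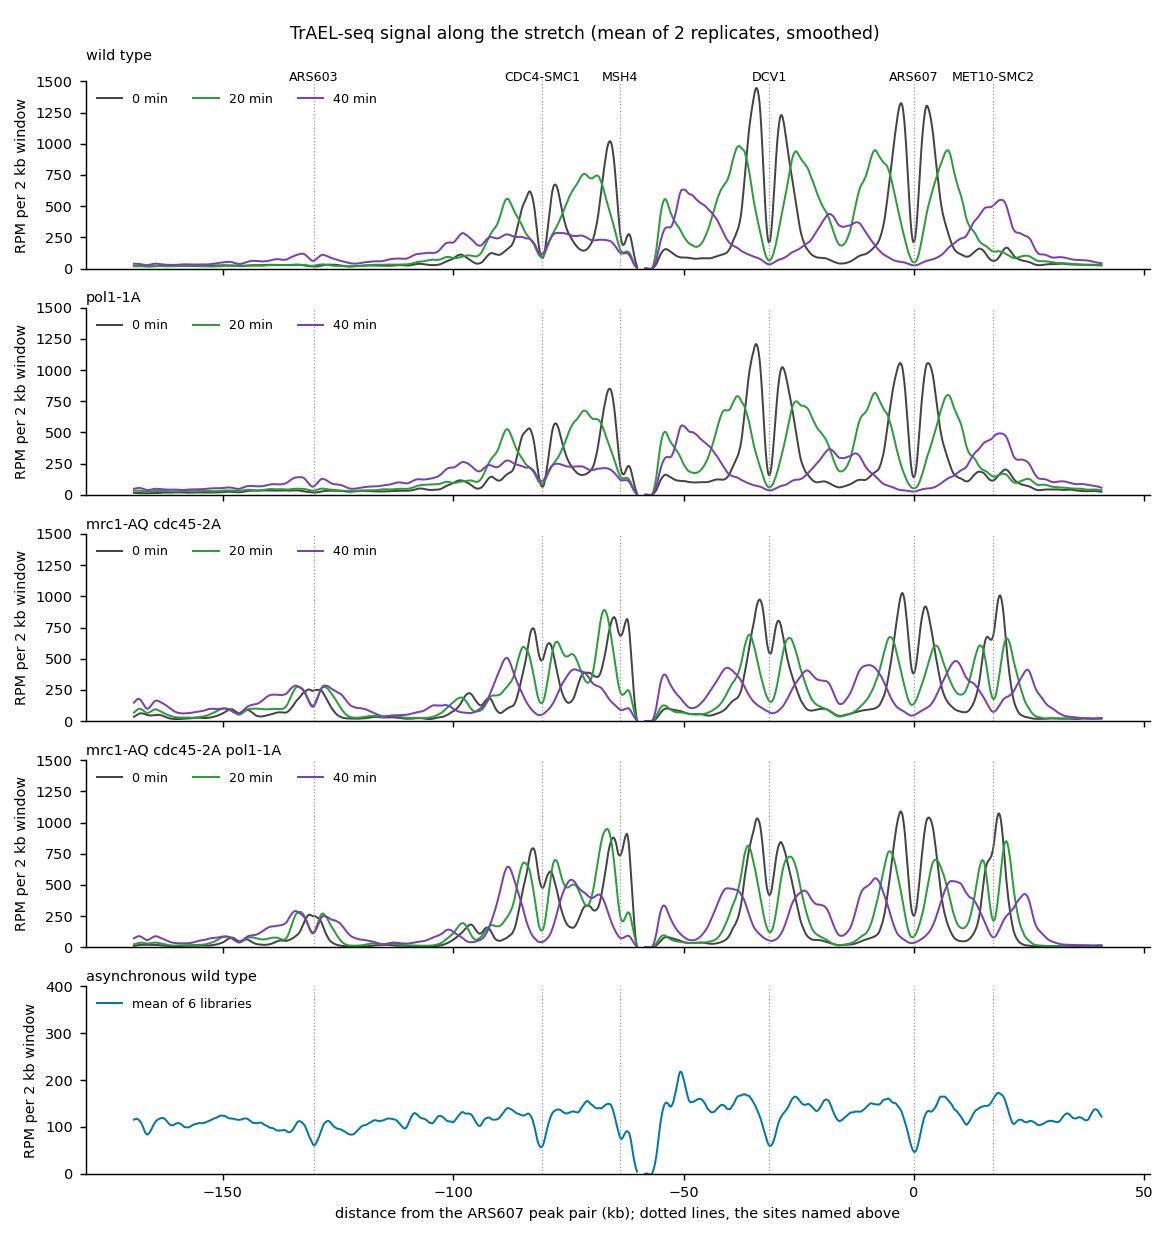
Smoothed TrAEL-seq signal (RPM per 2 kb window) against the distance in kb from the ARS607 pair, for each strain at 0, 20 and 40 min (mean of 2 replicates) and for asynchronous wild type (mean of 6 libraries, on a smaller axis). Wild type showed 7 peaks in HU and 5 at 40 min, while *mrc1-AQ cdc45-2A* showed 9 in HU and 10 at 40 min, with signal at ARS603 and *MET10*-*SMC2* already in HU. The gap left of the *DCV1* pair is the blank stretch.

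In asynchronous wild type cells the origins appeared as dips rather than peaks. At the pair centre the level, as a share of the median over the stretch, had a median of 47.4% at *CDC4*-*SMC1* (35.8% to 59.9%, 6 libraries), 49.2% at *DCV1* (34.5% to 71.5%) and 39.9% at ARS607 (31.2% to 46.1%). ARS603 also lay in a dip, with a median of 51.1% (43.8% to 59.0%). *MET10*-*SMC2* did not, with 127% (97.1% to 176%). In wild type HU against the asynchronous preparations, 73 of 105 non-overlapping windows of the stretch differed (limma, 26 higher and 47 lower), against a background of 70.2% of 5935 windows in the genome. Without asynchronous preparation 1 the count was 47 (30.7% of all windows). With quantile normalization 31 were higher and 19 lower, and the median log2 difference over all windows of the genome was -1.36. The largest rises were at 197 kb, where the level was 1149 and 1383 RPM in HU and 109 and 133 RPM in the asynchronous preparations (log2 difference 3.38, SE 0.25, adjusted p = 4.17e-10, limma), and at 201 kb (3.36, SE 0.26). The largest falls were at 53 kb, in the window that holds part of *ACT1* (fell by 2.59, SE 0.48), and at 31 kb (fell by 2.58, SE 0.49). All 34 windows from 31 to 97 kb were lower in HU. The 10 kb signal of all 3 origins was higher in HU than in asynchronous cells, as it was for 99.3% of the 136 origins, but these were called from the wild type HU libraries and this is a description.

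After HU removal the wild type peaks moved outwards. The distance of the highest smoothed window from the origin, in an arm of 20 kb, was taken as the fork distance. Arms were tested where the origin was above the lowest 40% of signal and the arm held 1 peak, which kept 132 arms in the genome and 4 of the 6 in the stretch. Both *CDC4*-*SMC1* arms were left out, because the origin was too weak. The left fork of *DCV1* stood at 2700 and 2900 bp in HU, 5500 and 7100 bp at 20 min, and 18500 and 18900 bp at 40 min. The left fork of ARS607 stood at 2700 and 2900 bp, 6100 and 8700 bp, and 18500 and 18100 bp. The right fork of ARS607 stood at 2700 and 2900 bp, 7100 and 7500 bp, and 18700 and 19100 bp. No time points overlapped in any of these arms. Replicate 2 was ahead of replicate 1 at 20 min in each of them. Between HU and 20 min 3 of 4 wild type arms moved (limma, background 90.9% of arms), and between 20 and 40 min again 3 of 4 (97.7%). The exception was the right fork of *DCV1*, at 2500 and 2700 bp, 5500 and 6100 bp, and 12900 and 13300 bp. Its SE of 3510 bp came from 2 libraries of other strains whose highest window was a neighbour's peak. At 40 min this fork and the left fork of ARS607 were read at the same place, a single peak at 181.0 kb between both origins. The left fork of *DCV1* was then read at 149.2 kb, where a fork from the *MSH4* side cannot be told apart from it. When arms were cut halfway to the next origin, a reading chosen after these values had been seen, all 4 wild type arms moved in both intervals. With full arms 90.9% and 97.7% of all arms moved, so a move is not particular to these.

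The *pol1-1A* forks were close to the wild type ones. At 40 min they stood at 18900 and 18900 bp (left of *DCV1*), 13100 and 13100 bp (right of *DCV1*), 18300 and 18300 bp (left of ARS607), and 18300 and 19100 bp (right of ARS607). The differences from wild type at 40 min were 200 bp (SE 811), 0 bp (SE 3510), 0 bp (SE 561) and -200 bp (SE 421). The *pol1-1A* peaks read then, at 149.0, 181.0 and 218.0 kb in the mean profile, lie between sites or beside another site, as in wild type. A neighbour's fork cannot be told apart in them. The right fork of *DCV1* and the left fork of ARS607 were read at the same peak, at 181.0 kb, in both strains. These differences thus compare shared peaks and not single forks. At 20 min *pol1-1A* was further out by 2000 bp (SE 811) on the left of *DCV1*, with 6900 and 9700 bp, but its replicates overlapped those of wild type and the adjusted p was 0.84. No arm of the stretch passed in *pol1-1A* against wild type at any time (limma, background 0% of 132 arms at each time). At an unadjusted p under 0.05 there were 0, 1 and 0 arms at 0, 20 and 40 min, against 0, 5 and 6 of 132 in the genome. Without wild type replicate 2 at 20 min 1 arm was called (4.55% of all arms), and without *pol1-1A* replicate 1 at 20 min 2 arms were (13.6%), all further out in *pol1-1A*. Within *pol1-1A*, 4 of 4 arms moved between HU and 20 min (background 91.7%) and 3 of 4 between 20 and 40 min (99.2%).

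In *mrc1-AQ cdc45-2A* the forks left the same origins but were read much nearer to them at 40 min. The left fork of *DCV1* stood at 1900 and 2300 bp in HU, 4100 and 4500 bp at 20 min and 9500 and 8100 bp at 40 min. Its distance at 40 min was below wild type by 9900 bp (SE 811, adjusted p = 1.59e-08, limma). The wild type reading is the peak at 149.2 kb, between *MSH4* and *DCV1*. Wild type had peaks at 145.4 and 161.4 kb there at 20 min, and *mrc1-AQ cdc45-2A* at 145.2 and 158.8 kb at 40 min. The first of these also stood at 145.2 kb in *pol1-1A* at 20 min and at 145.0 kb in *mrc1-AQ cdc45-2A pol1-1A* at 40 min. It lies beside the blank stretch, which ends at position 143800. Whether that edge sets the place of the peak was not tested. In wild type at 40 min a fork from *DCV1* and one from the *MSH4* side cannot be told apart. The left fork of ARS607 stood at 2500 and 2500 bp, 5300 and 5100 bp, and 9700 and 9500 bp. It was nearer than wild type by 2200 bp (SE 561, adjusted p = 0.00324) at 20 min and by 8700 bp (SE 561, adjusted p = 1.09e-09) at 40 min. The second of these shrank to 2900 bp (SE 601, adjusted p = 3.01e-04) with arms cut halfway, because the wild type peak at 181.0 kb is nearer to the *DCV1* origin. The right fork of ARS607 stood at 9100 and 9100 bp at 40 min, 9800 bp (SE 421, adjusted p = 9.53e-12) short of wild type. The wild type reading is the peak at 218.2 kb, beside *MET10*-*SMC2*, where a fork from ARS607 and one begun at that site cannot be told apart. The replicates of the strains did not overlap in any of these arms at 40 min.

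In HU and at 20 min the right arm of ARS607 in *mrc1-AQ cdc45-2A* could not be read from its highest window. That window lay 18500 and 18700 bp from the origin in HU and 19900 bp at 20 min in both replicates, where the peaks of the *MET10*-*SMC2* site stood (218.0 kb in HU, and 219.4 kb at 20 min, at the end of the arm). The tests called this arm as further out than in wild type, by 15800 bp in HU and 12600 bp at 20 min. The nearest peak outwards, a reading chosen after these values had been seen, was at 2300 and 2700 bp in HU and at 4700 and 4700 bp at 20 min. On that reading the difference from wild type was -300 bp (SE 477) in HU and -2600 bp (SE 477, adjusted p = 3.52e-04) at 20 min. The right fork of *DCV1* in *mrc1-AQ cdc45-2A* was also read at a neighbour's fork in replicate 1 at 40 min (19900 bp, against 8100 bp in replicate 2). Its nearest peaks were at 8300 and 8100 bp, short of wild type by 4900 bp (SE 569, adjusted p = 1.01e-06). Of the 4 arms, the highest window gave 1 call in HU (background 4.55%), 3 at 20 min (78.0%) and 3 at 40 min (91.7%) for *mrc1-AQ cdc45-2A* against wild type. The call on the left of *DCV1* at 20 min (2000 bp shorter, SE 811, adjusted p = 0.0366) was lost without wild type replicate 2 or either *mrc1-AQ cdc45-2A* replicate. The difference between the strains itself changed from 20 to 40 min in 3 of 4 arms (82.6% of arms) and from 0 to 20 min in 1 (27.3%).

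With *pol1-1A* added to *mrc1-AQ cdc45-2A*, no difference in fork distance passed the test. At 40 min the forks stood at 7100 and 9100 bp (left of *DCV1*), 7700 and 7500 bp (right of *DCV1*), 8300 and 8500 bp (left of ARS607) and 7700 and 9100 bp (right of ARS607). Against *mrc1-AQ cdc45-2A* the difference was -700 bp (SE 811), -6400 bp (SE 3510, or -600 bp, SE 569, by the nearest peak), -1200 bp (SE 561, adjusted p = 0.29) and -700 bp (SE 421, or 100 bp by the median position of the signal). Both replicates were nearer on the left of ARS607 and, by the nearest peak, on the right of *DCV1*, whereas the replicates of the strains overlapped on the left of *DCV1* and met at 9100 bp on the right of ARS607. None of the 4 arms passed in HU (background 0.758%), at 20 min (0.758%) or at 40 min (3.79%), by limma. None had an unadjusted p under 0.05, against 3, 4 and 22 of 132 arms in the genome. Without *mrc1-AQ cdc45-2A* replicate 2 at 40 min, the right arm of *DCV1* was called (-12300 bp), and the only *mrc1-AQ cdc45-2A* library left was the one read at the neighbour's fork. Without *mrc1-AQ cdc45-2A pol1-1A* replicate 1 the left arm of *DCV1* gave 300 bp. Between HU and 20 min, *mrc1-AQ cdc45-2A* moved in 3 of 4 arms (66.7% of arms) and *mrc1-AQ cdc45-2A pol1-1A* in 2 of 4 (49.2%; 3 with the pool as a block). For *mrc1-AQ cdc45-2A* fewer arms were called without replicate 1 in HU or without either replicate at 20 min. For *mrc1-AQ cdc45-2A pol1-1A* fewer were called without replicate 1 in HU or without replicate 2 at 20 min. The share of all arms of the genome fell under each of these settings too, and such a fit leaves 1 library in a group. Between 20 and 40 min the arms called were 4 of 4 (96.2%) and 3 of 4 (89.4%), including the right arm of ARS607, whose sign there follows from the neighbour's peak at 20 min.

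**Figure D2:**
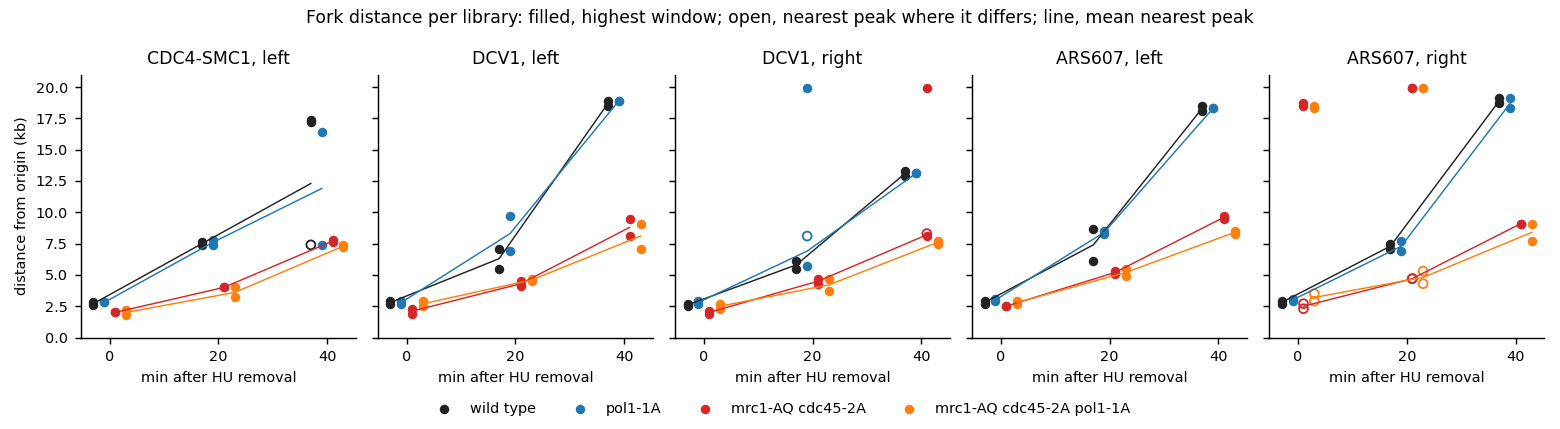
Fork distance in kb against minutes after HU removal, 1 point per library, for the left arm of *CDC4*-*SMC1* and both arms of *DCV1* and ARS607. Filled points are the highest smoothed window and open circles the nearest peak where that differs, and lines join the mean nearest peak of each strain. By the nearest peak, wild type and *pol1-1A* were read at 12900 to 19100 bp in the 4 tested arms at 40 min, and the strains with *mrc1-AQ cdc45-2A* at 7100 to 9700 bp. The wild type and *pol1-1A* peaks read there, near 149, 181 and 218 kb, lie between sites or beside another site. A neighbour's fork cannot be told apart in them.

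At *CDC4*-*SMC1*, described without a test, the left fork followed the same order. It stood at 2600 and 2800 bp in wild type HU, 7400 and 7600 bp at 20 min and 17200 and 17400 bp at 40 min. In *mrc1-AQ cdc45-2A* it stood at 2000 and 2000 bp, 4000 and 4000 bp, and 7600 and 7800 bp. In *pol1-1A* at 40 min replicate 1 gave 16400 bp and replicate 2 gave 7400 bp, so that its replicates were read at different peaks. The wild type height at 40 min was 289 and 280 RPM, and a second peak of 279 RPM stood at 7400 bp in replicate 2, so that the reading of replicate 2 rests on peaks of nearly equal height. The wild type peak of that time, at 101.4 kb in the mean profile, lies beside a small site at 103 kb described below. The window at 101 kb held 145 and 78.2 RPM in wild type HU already. Signal of that site and the *CDC4*-*SMC1* fork cannot be told apart there. To the right of this origin the next fork arrives from *MSH4*. In wild type the right peak at 121.4 kb and the left *MSH4* peak at 133.4 kb had given way to a single peak by 20 min. It stood at 127.8 kb in the mean profile, at 130600 bp in replicate 1 and at 127600 bp in replicate 2. In *mrc1-AQ cdc45-2A* peaks still stood at 121.8 and 132.0 kb at 20 min, with a single one at 125.6 kb at 40 min.

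The shape of the pairs also differed between strains in HU. In wild type the signal at the pair midpoint was 12.3% to 18.9% of the nearest peak over the 3 origins and 2 replicates, and in *pol1-1A* it was 11.0% to 17.0%. In *mrc1-AQ cdc45-2A* it was 63.9% to 78.1% at *CDC4*-*SMC1*, 54.5% to 71.8% at *DCV1* and 37.3% to 42.5% at ARS607. No library of the strain overlapped with wild type at any of the 3 origins. Since the pairs and their midpoints were called in wild type HU, a deep dip in wild type is favoured there. In *mrc1-AQ cdc45-2A pol1-1A* the midpoint was 59.7% to 88.3%, 35.1% to 56.7% and 18.5% to 28.6% at the same origins. With each side taken separately, it was lower than in *mrc1-AQ cdc45-2A* in both replicates on both sides of ARS607 and *DCV1* and on the left of *CDC4*-*SMC1*, and overlapped with it on the right of *CDC4*-*SMC1*. By 20 min the midpoint had fallen to 20.5% to 26.6% in *mrc1-AQ cdc45-2A* and 9.24% to 22.2% in *mrc1-AQ cdc45-2A pol1-1A*, and wild type was at 4.46% to 21.1% over the same origins. Wild type was below both strains at ARS607 (4.46% to 5.75%) and *DCV1* (5.93% to 7.76%), and at *CDC4*-*SMC1* (9.44% to 21.1%) its range overlapped that of *mrc1-AQ cdc45-2A pol1-1A* (17.1% to 22.2%) and came close to that of *mrc1-AQ cdc45-2A* (21.5% to 26.6%). On the right of *CDC4*-*SMC1* the wild type values, 9.44% and 14.3%, are shares of the single peak between this origin and *MSH4*. That peak stood 12000 and 9000 bp away, against 2800 to 3200 bp for the nearest peak in both other strains. Peaks in HU were also nearer the midpoint in *mrc1-AQ cdc45-2A* (1900 to 2700 bp in the 4 tested arms, against 2500 to 2900 bp in wild type), and a window of 2 kb blurs peaks that close, so the part of the width in these percentages was not tested. No pair was called at *CDC4*-*SMC1* in HU in either strain with *mrc1-AQ cdc45-2A*, where the dip was shallow and the nearest peaks stood, in the replicate means, 2000 bp to the left and 1500 or 1800 bp to the right, closer together than the limit of 4 kb. A pair was called there at 20 min, centred at 118.2 and 118.0 kb.

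**Figure D3:**
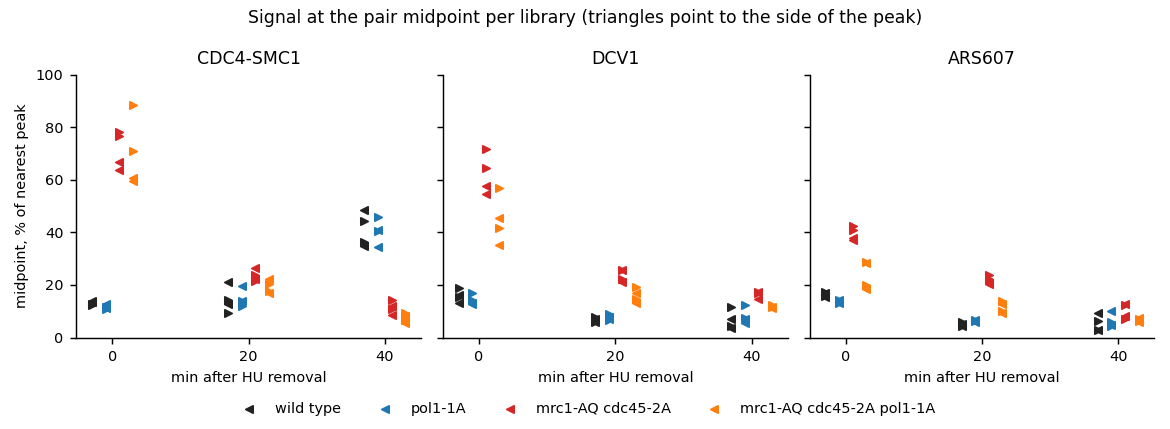
Signal at the pair midpoint as a percentage of the nearest peak, per library and side, against minutes after HU removal for the 3 called origins. In HU the wild type and *pol1-1A* points lie between 11.0% and 18.9%, and those of *mrc1-AQ cdc45-2A* between 37.3% and 78.1%.

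ARS603 gave almost no signal in wild type HU and a clear peak in both strains with *mrc1-AQ cdc45-2A*. The 10 kb around it held 121 and 134 RPM in wild type, 150 and 132 RPM in *pol1-1A*, 1082 and 826 RPM in *mrc1-AQ cdc45-2A*, and 779 and 728 RPM in *mrc1-AQ cdc45-2A pol1-1A*. The last 2 strains were above the first 2 in every library. The asynchronous libraries held 382 to 529 RPM, so that wild type HU cells were below asynchronous cells there. In the tested window at 69 kb the level was 268 and 213 RPM in *mrc1-AQ cdc45-2A* HU and 14.5 and 18.3 RPM in wild type HU (log2 difference 3.80, SE 0.37, adjusted p = 9.45e-08, limma), 13.9-fold on the log2(RPM + 1) scale. In total 6 neighbouring windows from 63 to 73 kb were higher in *mrc1-AQ cdc45-2A* HU, and 11 from 55 to 75 kb at 20 min. At 20 min the largest rises of the whole stretch were here too, at 65 kb (3.22, SE 0.31) and 73 kb (3.22, SE 0.43).

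The signal at ARS603 split around a dip after HU removal. In the mean profile of *mrc1-AQ cdc45-2A* the signal in HU was a single peak at 68.0 kb of 253 RPM, at 68000 bp in replicate 1 and 70400 bp in replicate 2. At 20 min the window at 69 kb had fallen to 130 and 114 RPM while those at 67 and 71 kb held 251 and 238 and 282 and 255 RPM. A pair with peaks at 65.0 and 71.4 kb was called at 40 min, and in *mrc1-AQ cdc45-2A pol1-1A* a pair with peaks at 66.0 and 71.0 kb was called at 20 min. In the mean profiles only the left peak was called in *mrc1-AQ cdc45-2A* at 20 min (65.6 kb) and in *mrc1-AQ cdc45-2A pol1-1A* at 40 min (65.0 kb). Wild type at 40 min held 53.2 and 71.0 RPM at 69 kb and 113 and 120 RPM at 67 kb, a dip of the same form at a lower level, and no peak was called there. The 10 kb signal in wild type rose from 149 and 118 RPM at 20 min to 458 and 496 RPM at 40 min, and in *mrc1-AQ cdc45-2A* it was 1069 and 1275 RPM at 40 min. The window at 69 kb no longer passed at 40 min (log2 difference 0.86, SE 0.37, adjusted p = 0.0721), when 9 windows on both sides of it, 57 to 67 kb and 71 to 75 kb, were higher.

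**Figure D4:**
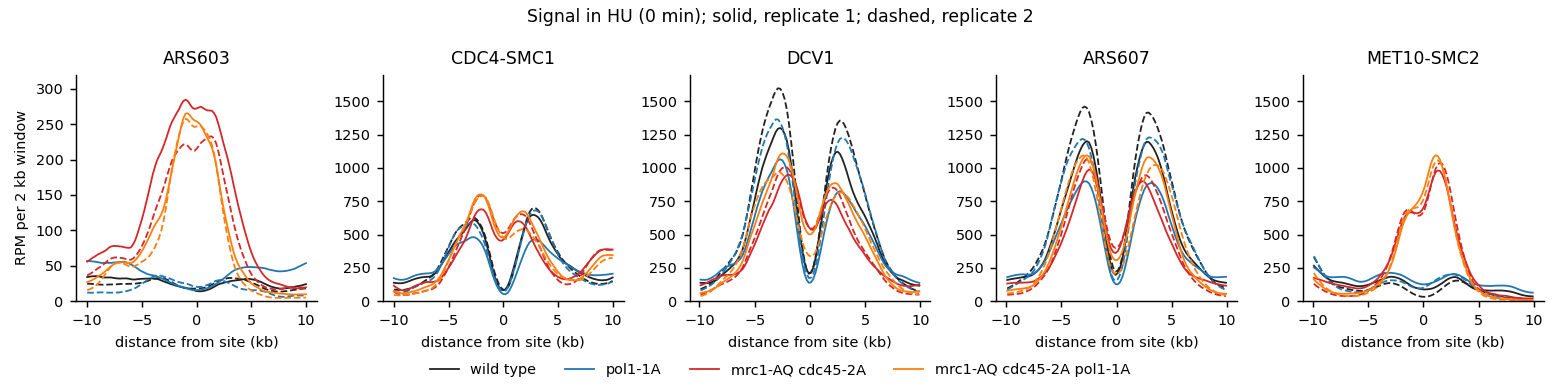
Signal in HU (RPM per 2 kb window) within 10 kb of 5 sites, per library, by strain. In the replicate means a peak is called at ARS603 and *MET10*-*SMC2* in the strains with *mrc1-AQ cdc45-2A* and in neither of the others (*pol1-1A* replicate 2 alone has one of 201 RPM near *MET10*-*SMC2*), and at the other 3 sites the dip between the peaks is shallower in those strains. The ARS603 axis is smaller than the others.

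The *MET10*-*SMC2* site was likewise filled in HU in the strains with *mrc1-AQ cdc45-2A*, at a higher level, but differed from ARS603 at 40 min. In HU the 10 kb around it held 699 and 515 RPM in wild type, 883 and 725 RPM in *pol1-1A*, 2622 and 2675 RPM in *mrc1-AQ cdc45-2A*, and 2636 and 2582 RPM in *mrc1-AQ cdc45-2A pol1-1A*. The strains with *mrc1-AQ cdc45-2A* thus reached the level of the *CDC4*-*SMC1* origin. In the window at 217 kb the level was 826 and 809 RPM in *mrc1-AQ cdc45-2A* and 93.8 and 38.8 RPM in wild type (log2 difference 3.74, SE 0.32, adjusted p = 2.81e-08, limma). In *mrc1-AQ cdc45-2A* 1 peak of 1008 RPM was called in HU, at 218.0 kb, and a pair at 213.6 and 219.4 kb at 20 min. At 40 min the order was turned: the window at 217 kb held 70.9 and 88.9 RPM in *mrc1-AQ cdc45-2A* and 516 and 536 RPM in wild type (fell by 2.71 on the log2 scale, SE 0.32, adjusted p = 1.30e-05). The highest wild type peak right of ARS607 at 40 min was at 218.2 kb, which is also where its right fork was read. A fork that came from ARS607 and a fork that began at this site cannot be told apart in wild type at 40 min from these windows.

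The 10 kb signal of the called origins fell as the forks left. At ARS607 it was 4339 and 5243 RPM in wild type HU, 2175 and 1490 RPM at 20 min and 256 and 272 RPM at 40 min. In *mrc1-AQ cdc45-2A* it was 3513 and 3844 RPM, 1908 and 1995 RPM, and 428 and 571 RPM. The 40 min values did not overlap and differed by 0.90 on the log2 scale (SE 0.17, adjusted p = 7.69e-06, limma). *DCV1* had 380 and 424 RPM in wild type and 574 and 741 RPM in *mrc1-AQ cdc45-2A* at 40 min (0.70, SE 0.18). *CDC4*-*SMC1* went the other way at 40 min, with 1016 and 1224 RPM in wild type and 683 and 760 RPM in *mrc1-AQ cdc45-2A* (fell by 0.63, SE 0.17). At 20 min it was higher in *mrc1-AQ cdc45-2A*, with 2243 and 2234 RPM against 1351 and 1199 RPM (0.81, SE 0.17). With a 20 kb window both differences at *CDC4*-*SMC1* turned, to -0.01 at 20 min and 0.19 at 40 min, and with quantile normalization that at 20 min was -0.02.

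Of the 3 origins, 1 changed in *mrc1-AQ cdc45-2A* against wild type in HU (background 30.9% of 136 origins), 1 at 20 min (71.3%) and 3 at 40 min (44.9%). The call in HU was *DCV1* (fell by 0.47, SE 0.18, adjusted p = 0.0367). It was lost without wild type replicate 2 or either *mrc1-AQ cdc45-2A* replicate, and since the origins were called in wild type HU, a lower value in another strain is favoured there. With the pool as a block 2 origins were called in HU, with ARS607 added, against 53.7% of all. No origin passed for *pol1-1A* against wild type or for *mrc1-AQ cdc45-2A pol1-1A* against *mrc1-AQ cdc45-2A* at any time, by limma or by edgeR. The background was 0% in HU, 20 and 40 min for the former, and 0%, 0% and 0.735% for the latter. At an unadjusted p under 0.05 there were 2 origins for *pol1-1A* at 20 min (37 of 136 in the genome) and 1 for *mrc1-AQ cdc45-2A pol1-1A* at 40 min (21 of 136). Those at 20 min, *DCV1* (log2 difference -0.38, SE 0.18) and ARS607 (-0.50, SE 0.17), were called with the pool as a block (adjusted p = 0.0390 and 0.0134, limma), when 35.3% of all origins were. Without wild type replicate 2 or *pol1-1A* replicate 1, 2 origins were also called, against 32.4% and 27.2% of all.

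**Figure D5:**
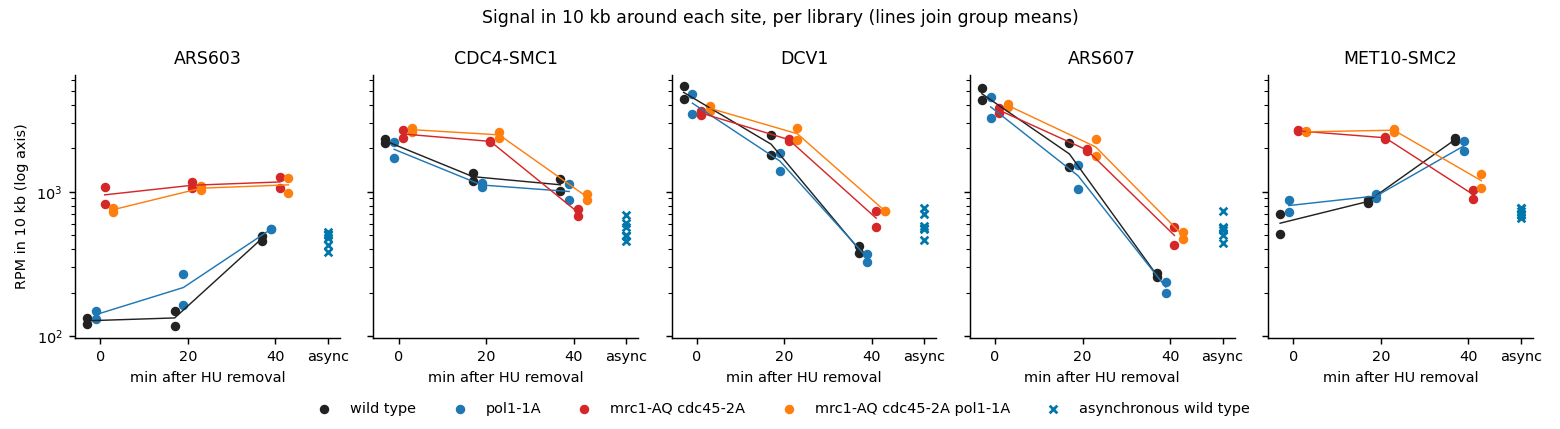
Signal in 10 kb (RPM, log axis) around 5 sites, 1 point per library, against minutes after HU removal, with the 6 asynchronous libraries at the right. The signal fell with time at *DCV1* and ARS607 in every strain, and at ARS603 it was 728 to 1082 RPM in HU in the strains with *mrc1-AQ cdc45-2A* against 121 to 150 RPM in the others.

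Over the whole stretch, *mrc1-AQ cdc45-2A* differed from wild type in 39 of 105 windows in HU (22 higher and 17 lower, limma, background 26.0% of 5935 windows). At 20 min it differed in 58 (31 and 27, background 42.5%) and at 40 min in 49 (35 and 14, background 34.2%). With quantile normalization the split in HU was 22 and 2. The median window of the genome differed by -0.24, 0.12 and 0.25 on the log2 scale at the 3 times. The count in HU was 19 without wild type replicate 2 (19.5% of all windows). At 40 min it was 27 without wild type replicate 1 (16.7%), 24 without wild type replicate 2 (14.5%) and 17 without *mrc1-AQ cdc45-2A* replicate 2 (8.71%). The windows followed the peaks. In HU the lower ones included 3 windows on the outer side of each *DCV1* and ARS607 peak, from 161 to 165, 171 to 175, 191 to 195 and 203 to 207 kb. The largest falls were at 173 kb, in *IOC3* and *CMK1*, with 322 and 349 RPM against 634 and 752 RPM (fell by 1.04, SE 0.19), and at 123 kb, in *SMC1* and *BLM10* (fell by 1.00, SE 0.19). At 20 min the lower windows filled 143 to 161 kb and 173 to 191 kb, which hold the wild type fork peaks of that time. There the largest falls were at 187 kb in *FAB1*, with 112 and 78.3 RPM against 444 and 722 RPM (fell by 2.58, SE 0.57), and at 183 kb (fell by 2.45, SE 0.68), the latter not called without replicate 2 of either strain. At 40 min the window at 151 kb in *NIC96* held 132 and 74.4 RPM against 613 and 567 RPM (fell by 2.56, SE 0.59), a call lost without *mrc1-AQ cdc45-2A* replicate 2.

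At the left end of the stretch the windows at 31 and 33 kb were higher in *mrc1-AQ cdc45-2A* at all 3 times, and the largest rises at 40 min lay there. The window at 31 kb held 179 and 176 RPM against 36.4 and 37.8 RPM in wild type (2.23, SE 0.49, adjusted p = 0.00285), and the window at 35 kb held 156 and 171 RPM against 45.8 and 33.3 RPM (2.03, SE 0.51), a call lost without replicate 2 of either strain. In *mrc1-AQ cdc45-2A pol1-1A* the window at 31 kb held 88.6 and 87.2 RPM at 40 min, between both. In HU it held 18.6 and 16.0 RPM, level with wild type (15.8 and 22.9 RPM) and below *mrc1-AQ cdc45-2A* (73.6 and 38.9 RPM). A small site at 103 kb was filled in HU in the strains with *mrc1-AQ cdc45-2A*, at 232 and 204 RPM, and at 193 and 172 RPM with *pol1-1A*. Wild type held 95.8 and 40.2 RPM there, and the windows at 103 and 105 kb passed (1.77 to 1.79). No pair was called at either place.

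No window of the stretch passed for *pol1-1A* against wild type (limma, background 0% at 0, 20 and 40 min), nor by edgeR. At an unadjusted p under 0.05 there were 2, 6 and 0 windows of 105, against 43, 160 and 57 of 5935 in the genome. Without *pol1-1A* replicate 1 in HU, 22 windows of the stretch passed, of which 21 were lower in *pol1-1A*, against 43.6% of all windows of the genome. At 63 kb, left of every peak called in the stretch in *pol1-1A* HU, replicate 1 held 52.5 RPM and replicate 2 held 16.0 RPM. The median window of the genome held 85.6 RPM in replicate 1 and 18.6 RPM in replicate 2. No window passed for *mrc1-AQ cdc45-2A pol1-1A* against *mrc1-AQ cdc45-2A* (background 0.0168% at 0 min and 0% at 20 and 40 min), nor by edgeR. At an unadjusted p under 0.05 there were 12, 4 and 9 windows of 105, against 804, 244 and 372 of 5935 in the genome. With the pool as a block 13 passed in HU, against 10.5% of all windows. The median log2 difference over all windows of the genome was -0.64 in HU.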

How the data were processed

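The authors deposited 1 table of signal, in RPM (scaled to mapped reads), for 30 libraries. The submitters' processing notes name Trim Galore 0.6.5, Bowtie2 2.4.1 and build R64. Per the methods, duplicates were removed, each read reduced to its end at the strand break, and repeated regions removed. The value of 1 read was recovered for each library: 100% of the values were whole within 0.01 of a read. The 3 asynchronous libraries of a replicate number were averaged.

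Windows and 10 kb origin signal were tested with limma 3.58.1 (trend) on log2(RPM + 1) and fork distances with limma in bp, in 1 fit of all groups with Benjamini-Hochberg adjustment over the genome (threshold 0.05). Because depth is recovered, edgeR 4.0.16 (quasi-likelihood) on the reads was an alternative. Peaks came from the profile smoothed over 15 windows (second order, scipy 1.17.1) with a prominence of 1 mean window value. Tests were tried on simulated data. Deviations of samples of 1 pool correlated at r = 0.04 to 0.79 over 18 strain pairs, 17 of them over 0.1, and the labels name the pools, so the pool was also fitted as a block. Named were the called origins, and in each comparison the windows that rose or fell most among those called, up to 2 each way. The members and lists were chosen with earlier results of these data known. PCR duplicates were removed by the authors, but depth bears on counting error only.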

Additional observations from a re-analysis of the deposited data

Results flagged for a closer look

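The effect of *mrc1-AQ cdc45-2A* on fork distance differed between time points in 3 of the 4 tested arms between 20 and 40 min, against 82.6% of all arms, and in 1 between 0 and 20 min, against 27.3%, by a test of the difference itself (limma, adjusted over 132 arms). By the nearest peak all 4 passed between 20 and 40 min, the right fork of *DCV1* with -3600 bp (SE 804, adjusted p = 9.08e-04). At the left fork of *DCV1* it was more negative at 40 min than at 20 min by -7900 bp (SE 1147, adjusted p = 2.26e-05), and at the left fork of ARS607 by -6500 bp (SE 794, adjusted p = 4.51e-06). With arms cut halfway to the next origin the latter was -700 bp (SE 849, adjusted p = 0.466). The value at the left fork of *DCV1* rests on the wild type reading at 149.2 kb at 40 min. There a fork from *DCV1* and one from the *MSH4* side cannot be told apart.

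At the right fork of ARS607 the same difference was -22400 bp (SE 596, adjusted p = 1.30e-13), and between 0 and 20 min it was -3200 bp (SE 596, adjusted p = 0.00146). Both values rest on the peak at *MET10*-*SMC2*, which was the highest window of that arm in *mrc1-AQ cdc45-2A* in HU and at 20 min. By the nearest peak they were -7200 bp (SE 675, adjusted p = 3.37e-07) and -2300 bp (SE 675, adjusted p = 0.0220).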

How the results depend on the processing

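Of single results, 321 of 351 settings for forks, 87 of 108 for origins and 185 of 192 for windows kept their direction and side of the threshold. Fitting the pool as a replicate block led to 13 windows for *mrc1-AQ cdc45-2A pol1-1A* against *mrc1-AQ cdc45-2A* in HU, and 2 origins for *mrc1-AQ cdc45-2A* against wild type in HU and for *pol1-1A* against wild type at 20 min. It moved no other count of windows, origins or arms by over 1.5 times, except that it gave 3 arms in place of 2 for *mrc1-AQ cdc45-2A pol1-1A* from HU to 20 min. The counts that follow come from fits that leave 1 library in a group. Where such a count moved by over 1.5 times, the share called over the genome moved the same way. Leaving out 1 library gave 0 to 22 windows for *pol1-1A* in HU, and for *mrc1-AQ cdc45-2A* against wild type 19 to 33 in HU and 17 to 36 at 40 min. It gave 47 to 82 windows for wild type HU against asynchronous cells. Origins called ranged from 0 to 1 for *mrc1-AQ cdc45-2A* in HU and from 0 to 2 for *pol1-1A* at 20 min. Arms called ranged from 0 to 2 for *pol1-1A* at 20 min, 0 to 1 for *mrc1-AQ cdc45-2A pol1-1A* against *mrc1-AQ cdc45-2A* at 40 min, and, from HU to 20 min, 1 to 2 for *mrc1-AQ cdc45-2A* and 0 to 2 for *mrc1-AQ cdc45-2A pol1-1A*.

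In this paragraph the share of all windows, origins or arms of the genome called under the same setting stands in brackets. For *mrc1-AQ cdc45-2A* against wild type, quantile normalization gave 24 windows (18.7%) and 0 origins (8.82%) in HU and 2 origins at 20 min (76.5%). Scaling to the reads in windows gave 0 origins in HU (17.6%). A 20 kb window gave 2 origins in HU (55.9%) and 2 at 20 min (73.5%), and a 6 kb window 2 at 20 min (88.2%). Arms called in HU were 2 with only the 4 libraries compared (62.1%), 0 with arms of 15 kb (5.30%) and 0 by the nearest peak (0%). At 20 min 1 arm was called with only the 4 libraries (62.9%). That setting gave 26 windows (30.3%) for *mrc1-AQ cdc45-2A pol1-1A* against *mrc1-AQ cdc45-2A* at 20 min. It also gave 4 arms (91.7%) for *mrc1-AQ cdc45-2A pol1-1A* from HU to 20 min, as did the median position of the signal (99.2%). In HU, *mrc1-AQ cdc45-2A pol1-1A* against *mrc1-AQ cdc45-2A* had 1 arm with smoothing over 25 windows (0.758%) and 1 by the median position (0.758%). Over all 6 arms, 5 were called for *mrc1-AQ cdc45-2A* against wild type at 40 min (69.1%). The count was also 5 for wild type in both intervals (77.2% and 79.0%) and for *pol1-1A* from 20 to 40 min (79.4%).

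Signs turned for the 10 kb signal of *mrc1-AQ cdc45-2A* against wild type. *CDC4*-*SMC1* was -0.24 in HU and -0.016 at 20 min with quantile normalization, and -0.012 at 20 min and 0.19 at 40 min over 20 kb. At 20 min *DCV1* was -0.11 without wild type replicate 2 (0.36 without replicate 1), -0.51 with quantile normalization and -0.67 over 20 kb, and ARS607 was -0.16 (0.39), -1.09 and -0.64. For the right arm of ARS607, *mrc1-AQ cdc45-2A* against wild type was -300 bp in HU (arms of 15 kb and nearest peak alike) and -2600 bp at 20 min (nearest peak). From HU to 20 min it was -1800 bp by the median position, and from 20 to 40 min 4400 bp by the nearest peak. In *mrc1-AQ cdc45-2A pol1-1A* the latter was 3600 bp by the nearest peak and with arms of 15 kb, and the difference from *mrc1-AQ cdc45-2A* at 40 min was 100 bp by the median position. The left arm of *DCV1* ranged from -1700 to 300 bp for that comparison with 1 library left out. The nearest peak and the halfway arms were chosen after seeing the data, and the causes were not tested. Annotated ARS midpoints as origin positions were not run.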
